A study of Mus musculus with 6 samples.

Results

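Hemoglobin transcripts were followed through 5 genes: the adult α-globin genes Hba-a1 and Hba-a2, the adult β-globin genes Hbb-bs and Hbb-bt, and Alas2, the erythroid form of the first enzyme of heme synthesis. They were chosen by gene symbol as a measure of blood carried in retinal tissue. Of the 5 genes, 3 (Hbb-bs, Hbb-bt and Alas2) had a transcript in all 6 libraries and could be compared, against 25202 genes compared in all. Hba-a1 was present for only part of the libraries and Hba-a2 was not analysed here.

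The libraries were made by poly(A) selection from retinas of wild type mice, labelled as C57BL/6 and as 5 weeks of age after birth. The labels describe frozen retinas, whereas the methods of the study describe isolated retinal cells, taken a week after SCF. Every eye received N-methyl-D-aspartate (NMDA), a glutamate receptor agonist that kills retinal neurons, by injection into the vitreous. In 3 libraries (NMDA + SCF) recombinant stem cell factor (SCF), the ligand of the receptor c-kit, was injected into the vitreous 2 days later. The other 3 (NMDA + PBS) are labelled as exposed to NMDA. That their eyes received PBS in place of SCF comes from the methods of the study. An uninjected retina was not analysed here, and neither the number of mice behind a library nor perfusion before dissection is given in the sources used, so p-values measure only the spread between these libraries.

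Hemoglobin is a tetramer of paired α- and β-globin chains, each holding a heme. Mouse strains of the C57BL group carry a pair of nearly identical adult β-globin genes, Hbb-bs and Hbb-bt, and a pair of nearly identical adult α-globin genes. Globin messages are among the most abundant in reticulocytes, the young red cells that have lost the nucleus but keep RNA, and they fade as the cell matures. Low globin expression has also been described in neurons and glia. SCF and c-kit are known for their part in the growth of erythroid progenitors in bone marrow, where heme, globin and the membrane skeleton of the red cell are produced together under transcription factors such as GATA1 and KLF1. In bulk tissue, more blood cells and more RNA per blood cell cannot be told apart.

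The β-globin genes lie next to each other on the minus strand of chromosome 7 (GRCm38, GENCODE M21), Hbb-bs at chr7:103826534-103828096 and Hbb-bt at chr7:103812524-103813996. Their coding sequences, 444 bases each from GENCODE transcripts, differ at 1 base, C417T, counted from 1 at the A of the start codon with the Hbb-bs base first. The ends of both coding sequences, positions 388 to 444 with the stop codon, are shown to make plain how little separates these genes, with the differing base in capitals.
Hbb-bs: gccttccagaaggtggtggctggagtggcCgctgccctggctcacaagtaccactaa
Hbb-bt: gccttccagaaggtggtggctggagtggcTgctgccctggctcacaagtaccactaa

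Of the 529 windows of 100 bases in the Hbb-bs transcript (628 bases), 331 (62.6%) occur unchanged in the Hbb-bt transcript (703 bases). How fragments that match both genes were divided is not given in the sources used here. The level of each β-globin gene is therefore uncertain, and their sum is the safer value.

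The promoters differ more than the coding sequences. The 120 bases before the RefSeq start (GRCm38.p6, minus strand) are shown because they hold the motifs for which β-globin promoters are known. Capitals mark the CACCC box, the CCAAT box (which reads ATTGG on the opposite strand) and the TATAA box. They span chr7:103827929-103828048 for Hbb-bs and chr7:103813924-103814043 for Hbb-bt. The start of the gene in GENCODE lies inside this window for Hbb-bt and upstream of it for Hbb-bs.
Hbb-bs: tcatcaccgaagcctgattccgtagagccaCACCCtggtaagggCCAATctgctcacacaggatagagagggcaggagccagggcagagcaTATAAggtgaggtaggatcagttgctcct
Hbb-bt: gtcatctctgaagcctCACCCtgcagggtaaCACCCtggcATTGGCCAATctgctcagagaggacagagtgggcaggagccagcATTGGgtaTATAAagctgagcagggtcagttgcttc

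Within these bases Hbb-bs had a CACCC box at -90, a CCAAT box at -76 and a TATAA box at -29, where -1 is the last base before the start and a position is that of the motif's first base. This CACCC box lay within the longer CCACACCC motif, which starts at -93 and is the form that the erythroid factor KLF1 is known to bind. Hbb-bt had the CACCC box at -104 and -89, the CCAAT box on either strand at -80, -75 and -36, and the TATAA box at -28, but no match to the longer CCACACCC motif. The matches at -80 and -75 are 2 readings of 1 palindrome. Among 32851 promoters searched on both strands over 250 bases before the start, 3.20% held the CCACACCC motif, 52.0% held the CACCC box, 33.9% held the CCAAT box and 22.8% held the TATAA box. The CACCC box is counted also where it lies within the longer motif. These are matches of letters in a window and show no binding.

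The files give FPKM, the fragments per kilobase of transcript, scaled to the mapped fragments of a library. The libraries held 44925938 to 48783182 clean reads. The scaling of the FPKM values implied 3404336 to 4440580 counted fragments a library, 14.1 to 18.2% of the clean reads taken as pairs. This percentage was highest in NMDA + PBS replicates 2 and 3, at 16.9 and 18.2%. These totals are the base of the shares of fragments given below. Transcripts came in 2 lists, one shared by all NMDA + SCF libraries with NMDA + PBS replicate 1 and one that served only the other NMDA + PBS libraries, so gene values are sums over the transcripts in both. Defining markers of retina were high throughout: Glul, the glutamine synthetase of Müller glia, ranged from 1960 to 3899 FPKM and Pde6b, a rod phosphodiesterase, from 267 to 414 FPKM. Lens transcripts were also present, chiefly in NMDA + SCF replicates 1 and 3, and their values are given beside the globins below.

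Of the members compared, Hbb-bs had the highest FPKM in every library. In NMDA + PBS replicates 1 to 3 it stood at 32.3, 26.4 and 18.3 FPKM. In the NMDA + SCF replicates, in the same order, it stood at 33.0, 79.2 and 169 FPKM. NMDA + SCF replicate 3 was far above all others, replicate 2 stood between, and replicate 1 lay at the level of NMDA + PBS replicate 1. Group means were 25.7 ± 7.02 FPKM without SCF and 93.9 ± 69.4 FPKM with it (SD, n = 3 each), a ratio of 3.66. On the log2(FPKM + 1) scale the difference was 1.57 ± 0.55 (SE), with an adjusted p of 0.536 by limma over all genes (0.0226 unadjusted). The difference did not pass the test. The exact two-sided permutation test of the means gave p = 0.1, the smallest value 3 against 3 libraries allow. Without NMDA + SCF replicate 3 the log2 difference was 1.005, and without replicate 1 it was 2.17.

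Hbb-bt gave the same order of libraries within NMDA + SCF at a lower level. Its FPKM was 15.5, 12.2 and 7.37 in NMDA + PBS and 13.3, 31.5 and 65.4 in NMDA + SCF, replicates 1 to 3 in both. NMDA + SCF replicate 1 lay between the NMDA + PBS libraries, so the groups overlapped. Group means were 11.7 ± 4.07 FPKM without SCF and 36.7 ± 26.4 FPKM with it (SD, n = 3 each). The log2 difference was 1.36 ± 0.54 (SE), with an adjusted p of 0.536 by limma (0.0395 unadjusted) and p = 0.2 in the exact permutation test. Without NMDA + SCF replicate 3 it was 0.82, and without replicate 1 it was 1.93.

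**Figure D1:**
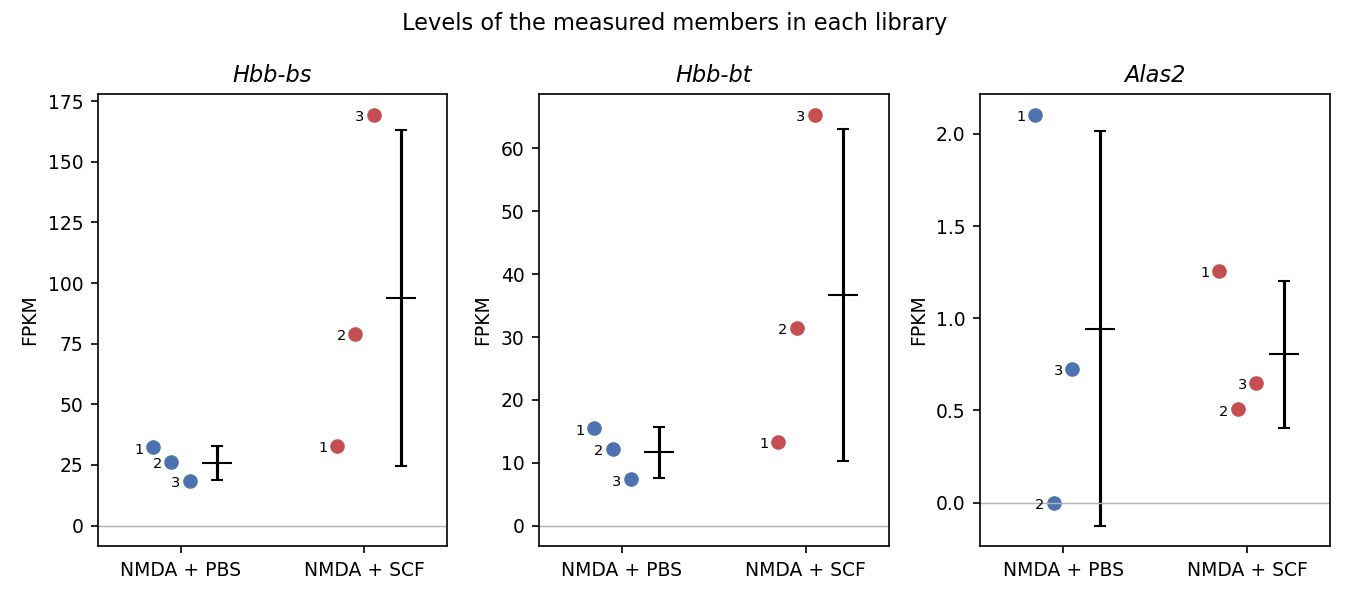
FPKM of Hbb-bs, Hbb-bt and Alas2 (vertical axes, linear, a different range in each panel) in the 3 NMDA + PBS and 3 NMDA + SCF libraries, with replicate numbers beside the points and the mean ± SD of each group as a bar. Both β-globin genes are highest in NMDA + SCF replicate 3 and next in replicate 2, while replicate 1 sits with the NMDA + PBS libraries; Alas2 stays at or below 2.11 FPKM and its groups overlap.

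No member was called at an adjusted p of at most 0.05, and neither was any of the 25202 genes tested (0%), while 2324 genes had an unadjusted p of at most 0.05 (9.22%; 4.33% higher and 4.9% lower in NMDA + SCF). Both β-globin genes, 2 of the 3 members compared, were among the genes with an unadjusted p of at most 0.05 that were higher in NMDA + SCF. Since part of the fragments match both genes, these are not 2 separate results. Only Hbb-bs among the members had groups that did not overlap, with all NMDA + SCF libraries higher, as had 7.63% of all genes in that direction (14.1% in either direction). Its gap was 71 fragments in the lowest NMDA + SCF library against 69 in the highest NMDA + PBS library. The count without overlap thus rests on 2 fragments before scaling.

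Summed over Hbb-bs and Hbb-bt, β-globin gave 106, 100 and 74 fragments in NMDA + PBS and 103, 250 and 527 fragments in NMDA + SCF. As a share of all counted fragments this was 0.00311% (95% Wilson interval 0.00257 to 0.00377%), 0.00251% (0.00207 to 0.00306%) and 0.00167% (0.00133 to 0.00209%) in NMDA + PBS. In NMDA + SCF it was 0.00301% (0.00248 to 0.00365%), 0.00718% (0.00635 to 0.00813%) and 0.0152% (0.0140 to 0.0166%). The intervals cover counting error only. NMDA + SCF replicates 2 and 3 lay above every other library and apart from each other beyond counting error, whereas the interval of replicate 1 overlapped those of NMDA + PBS replicates 1 and 2. The replicates within NMDA + SCF thus differed more among themselves than the lowest of them differed from the NMDA + PBS group.

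The summed FPKM averaged 37.3 ± 11.1 in NMDA + PBS and 130.6 ± 95.8 in NMDA + SCF (SD, n = 3 each), a ratio of 3.50, and of 2.10 without NMDA + SCF replicate 3. Against NMDA + PBS replicate 1 alone, the control that shares the transcript list of the NMDA + SCF libraries, the folds were 0.970, 2.32 and 4.92 for NMDA + SCF replicates 1, 2 and 3.

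The proportion between the β-globin genes varied little while their sum spanned these values. Hbb-bs took 65.1, 66.0 and 68.9% of the β-globin fragments in NMDA + PBS and 68.9, 69.2 and 69.8% in NMDA + SCF. All 6 binomial intervals overlapped, the widest running from 57.7 to 78.3%. Since part of the fragments match both genes, the proportion also carries the rule by which they were divided.

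Alas2, on the X chromosome (GRCm38, plus strand, chrX:150547375-150570638), did not follow the β-globin genes. Its FPKM was 2.11, 0 and 0.727 in NMDA + PBS and 1.26, 0.505 and 0.650 in NMDA + SCF. These values stand for 5, 0 and 4 fragments and for 3, 1 and 2 fragments, summed over 3 transcripts. The protein-coding transcript alone (2037 bases) held 2, 0 and 3 fragments in NMDA + PBS and 1, 0 and 1 fragments in NMDA + SCF. NMDA + PBS replicate 1 was the highest library and the groups overlapped. Group means were 0.944 ± 1.07 FPKM without SCF and 0.804 ± 0.399 FPKM with it (SD, n = 3 each). The log2 difference was 0.02 ± 0.44 (SE), opposite in sign to the difference of the means, with an adjusted p of 0.990 by limma and p = 0.8 in the exact permutation test. With at most 5 fragments a library, the fold of Alas2 between the groups is known only roughly.

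The α-globin genes could not be compared between the groups. Hba-a1 (GRCm38 chr11:32283511-32284465, plus strand) had 1 transcript, carried only in the list of NMDA + PBS replicates 2 and 3, and was listed at 0 in both. Those libraries held 100 and 74 β-globin fragments. Hba-a2 lies beside it at chr11:32296489-32297298. The α-globin coding sequences (429 bases each) differ at 1 base, and 56.5% of the windows of 100 bases in the Hba-a1 transcript occur unchanged in an Hba-a2 transcript. Whether the division of shared fragments bears on the value of 0 was not tested. Hba-ps4, an α-globin pseudogene on chromosome 17 that shares none of those windows, ranged from 5.26 to 9.14 FPKM, with 8 to 18 fragments a library, and was as high in NMDA + PBS replicate 3 (9.07 FPKM) as in NMDA + SCF replicate 3 (9.06 FPKM).

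Of the 7 embryonic and other globins of the erythroid loci, 1 could be compared: Hbb-y, a β-like globin of embryonic red cells, with 1 fragment in NMDA + SCF replicate 1 and 0 elsewhere. Hbq1a, a θ-globin carried only in the list of NMDA + PBS replicate 1 and the NMDA + SCF libraries, had 1 fragment in each of NMDA + SCF replicates 1 and 2. The globins of other tissues were low too. Mb, the myoglobin of muscle, ranged from 0.874 to 4.89 FPKM and Ngb, the neuroglobin of neurons, from 0 to 0.717 FPKM. Neither had groups apart, and the adjusted p by limma was 0.841 for Mb and 0.727 for Ngb.

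The membrane and skeleton of the red cell were represented by 16 genes, of which 10 could be compared and 2 (Rhag and Ermap) were listed at 0 in every library. Slc4a1, the anion exchanger band 3, is a defining marker among them. It was at 0 fragments in every NMDA + PBS library and had 4 fragments in NMDA + SCF replicate 3. It was at 0 in NMDA + SCF replicates 1 and 2, although replicate 2 held 250 β-globin fragments.

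The more abundant members of that list are also made outside blood. Sptb, β-spectrin, ranged from 17.4 to 26.8 FPKM in NMDA + PBS and from 25.7 to 32.0 FPKM in NMDA + SCF. Epb41, the skeleton protein 4.1R, ranged from 20.3 to 34.9 and from 19.3 to 25.7 FPKM. None of the 10 passed the test, and their median log2 difference was 0.11, against -0.01 over all genes. The summed level of the list spanned 48.4 to 55.5 FPKM in NMDA + PBS and 52.9 to 55.8 FPKM in NMDA + SCF.

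**Figure D2:**
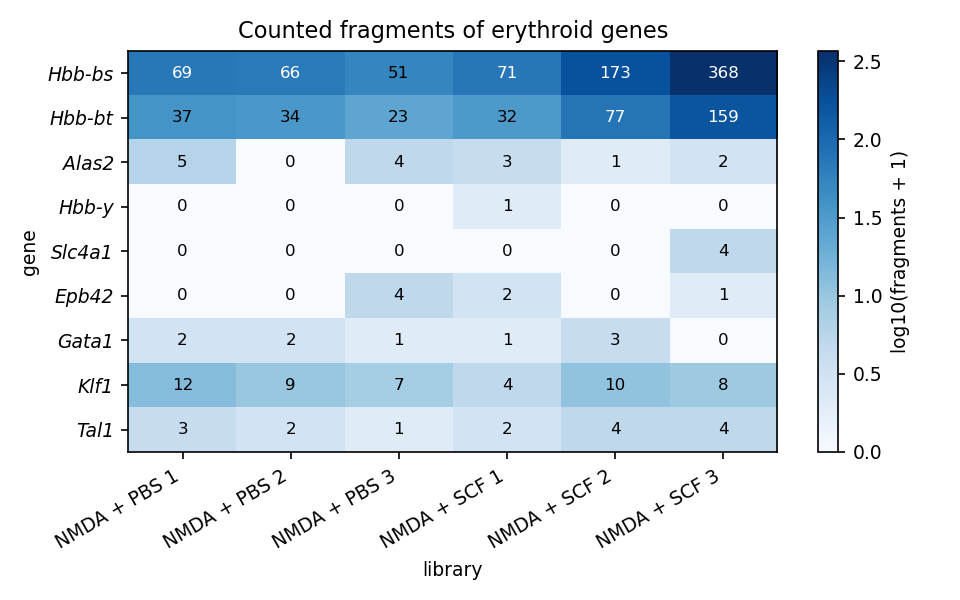
Counted fragments of 9 erythroid genes (rows) in the 6 libraries (columns), printed in each cell and shaded by log10(fragments + 1). The β-globin rows hold 23 to 368 fragments a library; no other row exceeds 12, and Slc4a1 is at 0 in all libraries but NMDA + SCF replicate 3.

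Among 9 erythroid transcription factors 7 could be compared and none passed the test; the median log2 difference was -0.03. Klf1, an activator of adult β-globin, had 12, 9 and 7 fragments in NMDA + PBS and 4, 10 and 8 in NMDA + SCF. Gata1, which directs erythroid differentiation, had 2, 2 and 1 and then 1, 3 and 0 fragments. Klf1 was highest in NMDA + PBS replicate 1 and Gata1 in NMDA + SCF replicate 2, and Gata1 was at 0 in NMDA + SCF replicate 3, the library with most β-globin. Lmo2, a bridging factor in erythroid and endothelial cells, was at 3.73, 3.96 and 1.22 FPKM in NMDA + PBS and at 0, 0.876 and 0.682 FPKM in NMDA + SCF. Its groups did not overlap, with NMDA + SCF lower, as for 6.45% of all genes (log2 difference -1.35 ± 0.45 SE, adjusted p = 0.536 by limma). Zfpm1, of the same list, went the other way, with groups apart and NMDA + SCF higher, as for 7.63% of all genes. It was at 0, 0.445 and 0.403 FPKM in NMDA + PBS and at 0.603, 0.678 and 0.512 FPKM in NMDA + SCF. Its log2 difference was 0.33 ± 0.21 (SE), with an adjusted p of 0.618 by limma, and it is named after its values were seen.

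Heme synthesis was covered by 12 genes besides Alas2, of which 7 could be compared. None passed the test, and the median log2 difference was 0.25, with 3 genes apart and higher in NMDA + SCF (7.63% of all genes) and 1 apart and lower (6.45% of all genes). Slc25a38, the mitochondrial carrier that brings glycine to the first step of heme synthesis, was at 42.9, 34.5 and 29.5 FPKM in NMDA + PBS and at 48.4, 51.5 and 63.9 FPKM in NMDA + SCF. Its order over the libraries was that of β-globin except in NMDA + SCF replicate 1, which here lay above NMDA + PBS replicate 1 (log2 difference 0.61 ± 0.20 SE, adjusted p = 0.536 by limma). Cpox, coproporphyrinogen oxidase, was at 56.8 to 62.4 FPKM in NMDA + PBS and at 67.4 to 75.9 FPKM in NMDA + SCF (log2 difference 0.25 ± 0.15 SE, adjusted p = 0.612). The summed list spanned 133.9 to 153.3 FPKM in NMDA + PBS and 166.9 to 188.4 FPKM in NMDA + SCF.

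Of 12 further proteins of late red cells, 9 were compared and none passed the test (median log2 difference 0.31). Groups were apart for 1 gene higher in NMDA + SCF (7.63% of all genes) and 2 lower (6.45% of all genes), Tfrc and Bpgm. Tfrc, the transferrin receptor, is named after its values were seen. It was at 14.2, 10.1 and 10.4 FPKM in NMDA + PBS and at 5.79, 5.12 and 6.25 FPKM in NMDA + SCF. Its log2 difference was -0.89 ± 0.22 (SE), with an adjusted p of 0.536 by limma. Car2, a carbonic anhydrase that Müller glia also make, was at 658.8 to 1221 FPKM in NMDA + PBS and 983.6 to 1086 FPKM in NMDA + SCF. Bpgm, which makes the 2,3-bisphosphoglycerate of red cells, was at 3.57, 106 and 63.6 FPKM in NMDA + PBS, beside 0.931 to 3.46 FPKM in NMDA + SCF. Its high values were those of replicates 2 and 3, the libraries with the other transcript list, and the part of that list in its difference was not tested.

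Iron and heme handling showed no common direction: of 12 genes 11 were compared, none passed the test and the median log2 difference was -0.19. Hmox1, the inducible oxygenase that breaks down heme, was at 10.5, 22.3 and 13.1 FPKM in NMDA + PBS and at 19.2, 26.4 and 39.3 FPKM in NMDA + SCF. As with β-globin, NMDA + SCF replicate 3 was highest and replicate 2 next, but the groups overlapped (log2 difference 0.85 ± 0.35 SE, adjusted p = 0.536 by limma). Fth1, the ferritin heavy chain that stores iron, was at 1697 to 3642 FPKM in NMDA + PBS and 3356 to 3494 FPKM in NMDA + SCF.

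**Figure D3:**
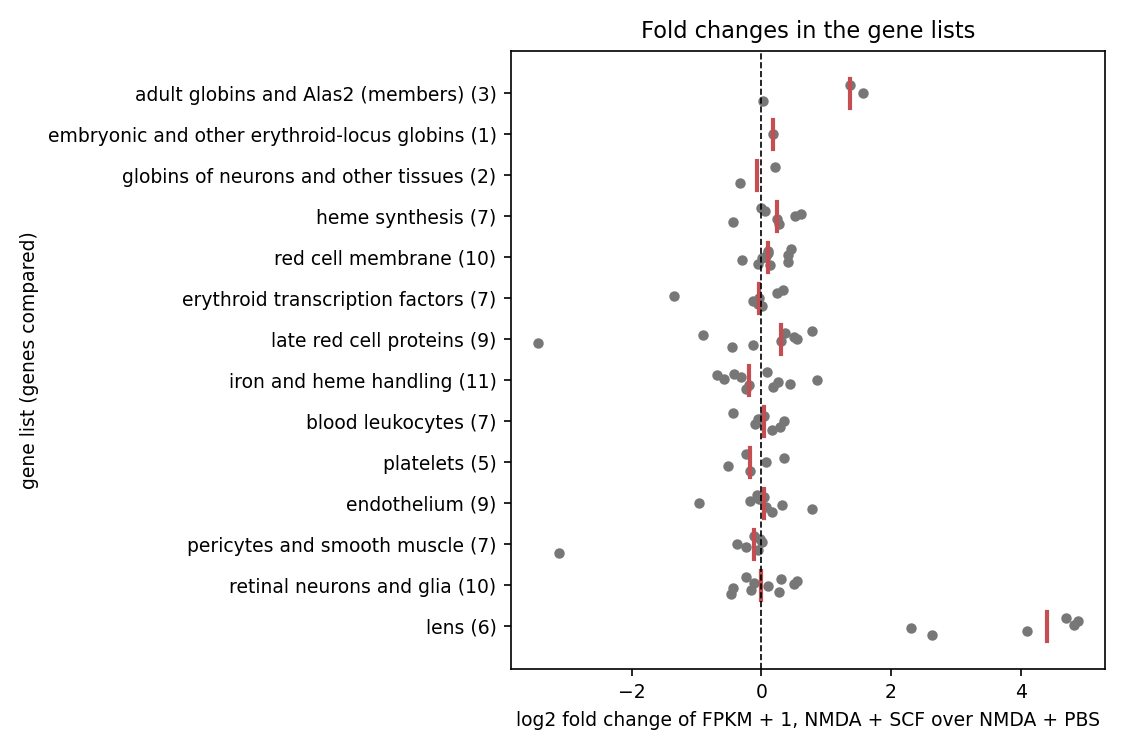
Log2 fold change of FPKM + 1 (horizontal axis, NMDA + SCF over NMDA + PBS) for each gene that could be compared, by gene list, with the median of a list as a red bar and the median of all genes as a dashed line. The 2 β-globin genes lie at 1.57 and 1.36 and Alas2 at 0.02, the medians of the other blood, vessel and retina lists lie between -0.19 and 0.31, and that of the lens list at 4.40.

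The other cells of blood gave no call. Of 13 leukocyte genes 7 were compared (median log2 difference 0.04), and the summed list spanned 4.18 to 6.61 FPKM in NMDA + PBS and 4.51 to 6.81 FPKM in NMDA + SCF. Camp, a granule peptide of neutrophils, ranged from 2.29 to 4.17 FPKM over all libraries and Cd79a, of the B cell receptor, from 0.464 to 2.02 FPKM. Of 8 platelet genes 5 were compared (median -0.17), with sums of 3.61 to 5.37 FPKM in NMDA + PBS and 1.66 to 5.60 FPKM in NMDA + SCF. Itga2b, the platelet integrin, was highest in NMDA + PBS replicate 2 at 4.17 FPKM and next in NMDA + SCF replicate 3 at 3.39 FPKM. Gp1ba, part of the platelet receptor for von Willebrand factor, ranged from 0.538 to 1.33 FPKM. Gp1bb, another part of that receptor, could not be compared because the lists hold different transcripts of it, and it is named after its values were seen. In the list of the NMDA + SCF libraries it was at 1.82 FPKM (13 fragments) in NMDA + PBS replicate 1 and at 4.98, 7.57 and 3.59 FPKM (36, 55 and 26 fragments) in NMDA + SCF. Its transcript in the other list was at 2.59 and 0.732 FPKM in NMDA + PBS replicates 2 and 3.

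Vessel wall markers were set beside the globins as well. The endothelial list (9 of 10 genes compared, median log2 difference 0.05) summed to 136.6 to 155.2 FPKM in NMDA + PBS, and with NMDA + SCF the 3 replicates gave 137.0, 169.3 and 170.5 FPKM. NMDA + SCF replicates 2 and 3, the libraries with most β-globin, were also highest here, at 1.18 and 1.19 times the NMDA + PBS mean, and the part of vessel content in the globin values was not tested. Cldn5, a tight junction protein of the blood-retina barrier, was at 78.5, 63.5 and 28.5 FPKM in NMDA + PBS and 74.3, 101.6 and 99.99 FPKM in NMDA + SCF. Flt1, a VEGF receptor, was at 17.0, 57.1 and 69.0 FPKM and then at 18.1, 22.7 and 21.2 FPKM. Its high values, which enter the endothelial sums, were those of NMDA + PBS replicates 2 and 3, the libraries with the other transcript list. For pericytes and smooth muscle (7 of 8 compared, median -0.11), Rgs5 ranged from 76.7 to 97.6 FPKM over all libraries. Acta2, smooth muscle actin, was at 0.660, 45.3 and 22.0 FPKM in NMDA + PBS and at most 0.812 FPKM in NMDA + SCF. Its high values too were those of NMDA + PBS replicates 2 and 3. The part of the transcript list in Flt1, Acta2 and the endothelial sums was not tested.

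The lens list differed more between the groups than β-globin, with another order of the libraries. All 6 genes had an unadjusted p of at most 0.05 and were higher in NMDA + SCF, as for 4.33% of all genes, and none passed the adjusted test; the median log2 difference was 4.40. The summed lens level was 19.7, 136.0 and 176.7 FPKM in NMDA + PBS and 3897, 387.2 and 7243 FPKM in NMDA + SCF. Crygs, a γ-crystallin, was at 16.6, 121.8 and 149.8 FPKM and then at 3273, 354.3 and 6280 FPKM, and Grifin, a lens galectin, was at 0 to 8.45 and 15.5 to 457.5 FPKM. NMDA + SCF replicate 1 was thus high in lens transcripts at an NMDA + PBS level of β-globin, replicate 2 had more β-globin with less lens, and replicate 3 was highest in both. The part of lens tissue in the globin values was not tested. The retinal list itself (10 of 12 genes compared) had a median log2 difference of -0.01.

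**Figure D4:**
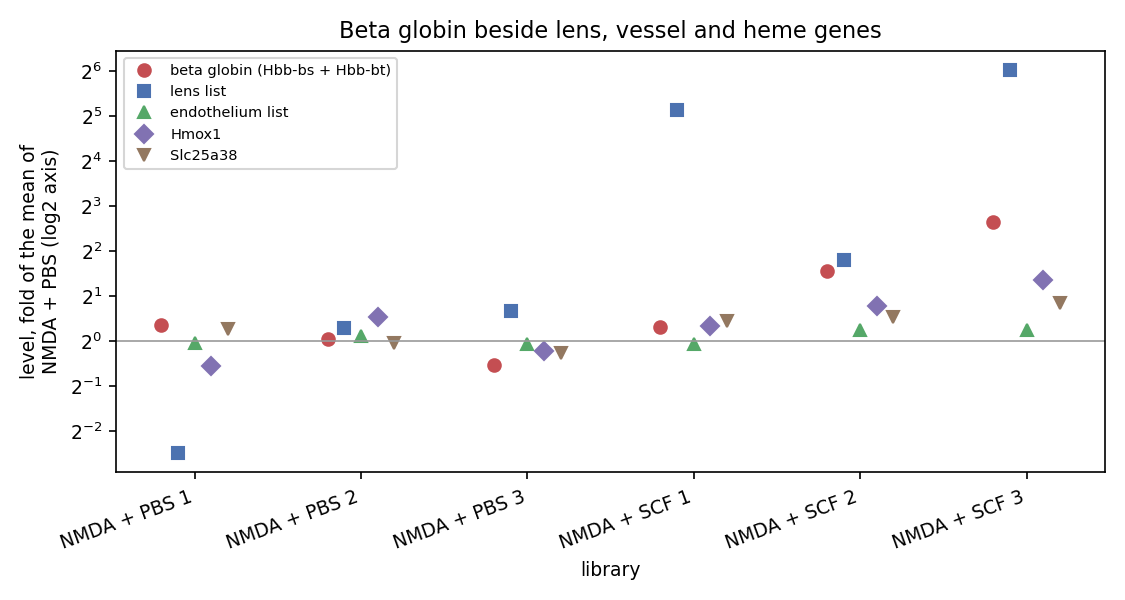
Level in each library as a fold of the NMDA + PBS mean (vertical axis, log2 scale) for summed β-globin, the summed lens and endothelial lists, Hmox1 and Slc25a38. NMDA + SCF replicate 1 is at 35.2 for lens and 1.24 for β-globin, replicate 2 at 3.50 and 2.96, and replicate 3 at 65.4 and 6.29.

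The genes whose level over the 6 libraries was most like that of β-globin were ranked by Pearson's r on the log2(FPKM + 1) scale among 14011 genes with a mean of at least 1 FPKM. Among the highest were Gm42595 (r = 0.992), Haus4 (0.987), Aifm3 (0.987) and Ganc (0.985). With 6 points that share their libraries and their scaling, these coefficients are a description of the ranking alone. Haus4, of the augmin complex at spindle microtubules, was at 7.27, 6.94 and 5.50 FPKM in NMDA + PBS and at 8.23, 11.6 and 14.7 FPKM in NMDA + SCF. Aifm3 ranged from 0.424 to 4.28 FPKM, Gm42595 from 9.95 to 15.7 FPKM and Ganc, a neutral glucosidase, from 6.21 to 13.5 FPKM. None of these 4 passed the test, and none belongs to the erythroid lists.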

How the data were processed

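The authors deposited FPKM values per transcript for each of the 6 retinal libraries, together with a table of sequencing totals whose 6 further columns of values per library were not used. The processing notes name mm9, but 98.2% of the Ensembl transcripts lay at GENCODE M21 (GRCm38) positions, so positions here are GRCm38. FPKM was summed per gene over 46933 transcripts in both lists (7529 and 8966 stood in 1 list only and assembled transcripts without a gene were left out). The deposited FPKM was multiplied by GENCODE length and divided by the value of a fragment, estimated for each library from the same products. The result was a whole number (within 0.05) for 98.4 to 98.5% of the values above 0. Genes were compared by limma 3.58.1 (R 4.3.3) with a variance trend on log2(FPKM + 1), with Benjamini-Hochberg adjustment over 25202 genes above 0 in at least 1 library. The fit was also run on simulated fragments with the same spread in every library and no split of transcript lists. That run therefore cannot show how the fit behaves with the uneven libraries and 2 lists of these data. Members, lists and tests were chosen with earlier results of these data known. Genes named besides the members are the 2 most abundant compared genes of each list, defining markers, the 5 genes most like β-globin, and those needed to explain a small count; some of these are not reported here. Alternatives were another pseudocount, a filter on low values, other scalings, all transcripts, voom on fragments, no variance trend, a replicate block and leaving out each library. Genes without a value are not analysed here.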

Additional observations from a re-analysis of the deposited data

How the results depend on the processing

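The log2 difference of Hbb-bs kept its direction in 14 alternatives, from 1.005 to 2.17 (adjusted p 0.232 to 0.791), and that of Hbb-bt in 14, from 0.82 to 1.93 (adjusted p 0.268 to 0.791); neither passed the test in any of them. Alas2 turned to -0.054 under upper quartile scaling and to -0.028 under median-of-ratios scaling, and ranged from -0.38 to 0.43 when each library was left out, with its highest value, 0.585, under a pseudocount of 0.1 (adjusted p 0.569 to 0.997 over 13 alternatives). The cause was not tested, and a mean of at least 1 FPKM leaves it out. The ratio of summed β-globin ranged from 2.10 to 4.63 over the left-out libraries. The number of genes called was 0, but 2 by voom on fragments (mt-Nd1 and mt-Co1) and 0 to 909 when each library was left out, with 909 without NMDA + PBS replicate 1 and 1 (Foxe3) without NMDA + SCF replicate 2; the cause was not tested. Without NMDA + PBS replicate 1, which leaves only controls of the other transcript list, 4 genes of the lists were called (Flt1, Hpx, Acta2 and Bpgm), and 0 to 4 over all left-out libraries. These gene names were chosen after their values were seen. With the replicate number as a block 0 genes were called and Hbb-bs had an adjusted p of 0.658 by limma. Deviations from the group means correlated at -0.05, -0.05 and -0.08 for libraries with the same number. For libraries with different numbers they correlated at 0.01 to 0.05. No pairing by number was thus seen, but 3 libraries a group are too few to settle whether the numbers pair them. The median of the embryonic list had no value without NMDA + SCF replicate 1. Depth limits Alas2 and Slc4a1, which rest on at most 5 fragments a library.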
